A study of Mus musculus with 9 samples.

Results

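Genes of the Zfp and Zbtb families, which encode proteins with zinc fingers, were followed as hosts of circular RNAs (circRNAs, rings of RNA in which a splice donor has been joined to an acceptor that lies before it). A host was counted when the Ensembl identifier in the deposited table of all circRNAs had a symbol beginning with Zfp or Zbtb. Zbtb38, Zfp516, Zfp609 and Zfp292 were left out by the same rule. It took 105 of the 6943 hosts (90 Zfp and 15 Zbtb genes) and 352 of the 37751 circRNAs. A symbol was found for 6861 hosts, and the other 82 could not be screened.

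The cells were C2C12, an established line of mouse myoblasts that fuses into myotubes when serum is withdrawn. Day 0 was proliferating cells in medium with fetal bovine serum, and days 3 and 6 followed a switch to medium with a lower share of horse serum. Each time point had 3 libraries of total RNA, all from unmodified cells of this 1 line. The labels name no step that digests linear RNA. They also leave unsaid if libraries of 1 time point are separate cultures, and p-values then measure a spread between samples that may be technical.

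A classical zinc finger is a short fold in which a pair of cysteines and a pair of histidines hold a zinc ion, and rows of such fingers read DNA. Many Zfp proteins carry a KRAB domain, which recruits the co-repressor TRIM28 and the histone methyltransferase SETDB1. Zbtb proteins carry a BTB domain, through which they pair and bind co-repressors such as NCoR or the ubiquitin ligase scaffold Cul3. In many KRAB genes the fingers are encoded together in the last exon, which has no downstream splice donor and so cannot close a loop with its own end.

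Libraries held 208787 to 443955 back-splice reads, and scaling (TMM) factors were 0.951 to 1.13. Summed over the 12 of 21 muscle marker genes that hosted circRNAs, levels were 207 to 434 CPM at day 0, 9439 to 10975 CPM at day 3 and 11166 to 14908 CPM at day 6. CPM here is the back-splice reads of a feature scaled to a common library total, after adjustment by those factors. The 15 markers of proliferating cells, all of them hosts, summed to 9213 to 11446, 2186 to 2537 and 824 to 1485 CPM at days 0, 3 and 6. Of 11 adipocyte or osteoblast markers 2 were hosts, at 327 to 869 CPM in all, and none of 12 endothelial, blood and nerve markers was one. The muscle and proliferation sums move with time in every comparison with day 0 given here, the adipocyte or osteoblast sum overlaps across time points, and their part in the results was not tested.

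Junctions of 7 circRNAs that the results turn on are shown first. Each is written 5′ to 3′ on the strand of the gene, with the last 15 bases of the donor exon in lower case and the first 15 bases of the acceptor exon in capitals, as read from GENCODE M21 transcripts of GRCm38 at the deposited positions. Exons are numbered on the annotated transcript that holds both ends. The first 2 are the most abundant of the whole group, the next 2 end at the same Zfp827 donor from other acceptors, Zfp704 is the fourth most abundant, Zbtb20 is the one called, and Zfp512 is the one that DESeq2 called.
Zfp148 exons 2 to 4, chr16:33421321-33434974 (+): gcactcaatgtccctGATAGAAGAGAAGAA
Zfp827 exons 6 to 8, chr8:79118175-79136663 (+): gagtgtctgctccagCGGAAAGCTACAAGG
Zfp827 exons 5 to 8, chr8:79091833-79136663 (+): gagtgtctgctccagCTGCAAACCAGAAGG
Zfp827 exons 2 to 8, chr8:79060250-79136663 (+): gagtgtctgctccagATGTTAGTAGGCAGG
Zfp704 exons 3 to 4, chr3:9470892-9474602 (-): ccgaggaagagaaagAAAATCTTCAGAGGA
Zbtb20 exons 2 to 5, chr16:43569681-43577748 (+): ccgggtcatctgattATGCAGCCACTCTCT
Zfp512 exons 4 to 7, chr5:31466232-31468240 (+): aatcataatagtctgGCGCAGGTGAAAAGG

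Zinc finger hosts gave 35005 back-splice reads over the 9 libraries, 1.31% of all. The share was 1.37%, 1.21% and 1.47% in the day 0 libraries, 1.37%, 1.28% and 1.33% at day 3 and 1.27%, 1.26% and 1.20% at day 6. The means were 1.35 ± 0.135%, 1.33 ± 0.0443% and 1.25 ± 0.0373% (SD, n = 3 each), and the lowest day 0 library overlapped the day 6 range. A library listed 80 to 131 of the circRNAs and 37 to 65 of the hosts.

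The reads were concentrated in few genes. Zfp827, Zfp148 and Zfp236 held 62.5% of them, and the first 12 hosts held 83.8%. The 15 Zbtb hosts held 5.26%, most of it from Zbtb20. The median host had 39 reads and 2 circRNAs, against 56 reads and 3 circRNAs for all hosts of the table. Of the 105 hosts, 51 had a single circRNA, 40 had under 20 reads, 34 appeared in 1 library and 15 in all 9.

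Single circRNAs were as unevenly spread. There were 206 (58.5%) listed in only 1 library, with 5.78% of the zinc finger reads, and 21 (5.97%) listed in all 9, with 67.8%. Over the whole table the shares were 61.4% of circRNAs with 8.26% of reads, and 3.95% with 60.2%. Zfp827 alone gave 7 of the 21, and Zfp148 and Zfp236 gave 3 each. By the deposited types 305 were exonic, with 98.1% of the reads, and 47 were intronic. A circBase identifier was given for 28, which held 62.6% of the reads. A 40-base flank of 5 circRNAs (1 of Zbtb11, 1 of Zfp384 and 3 of Zfp82) also occurs in a transcript of another gene, so their assignment is uncertain. Another 2, of Zfpm1 and Zfp804a, lie on the strand that their host gene does not use.

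**Figure D1:**
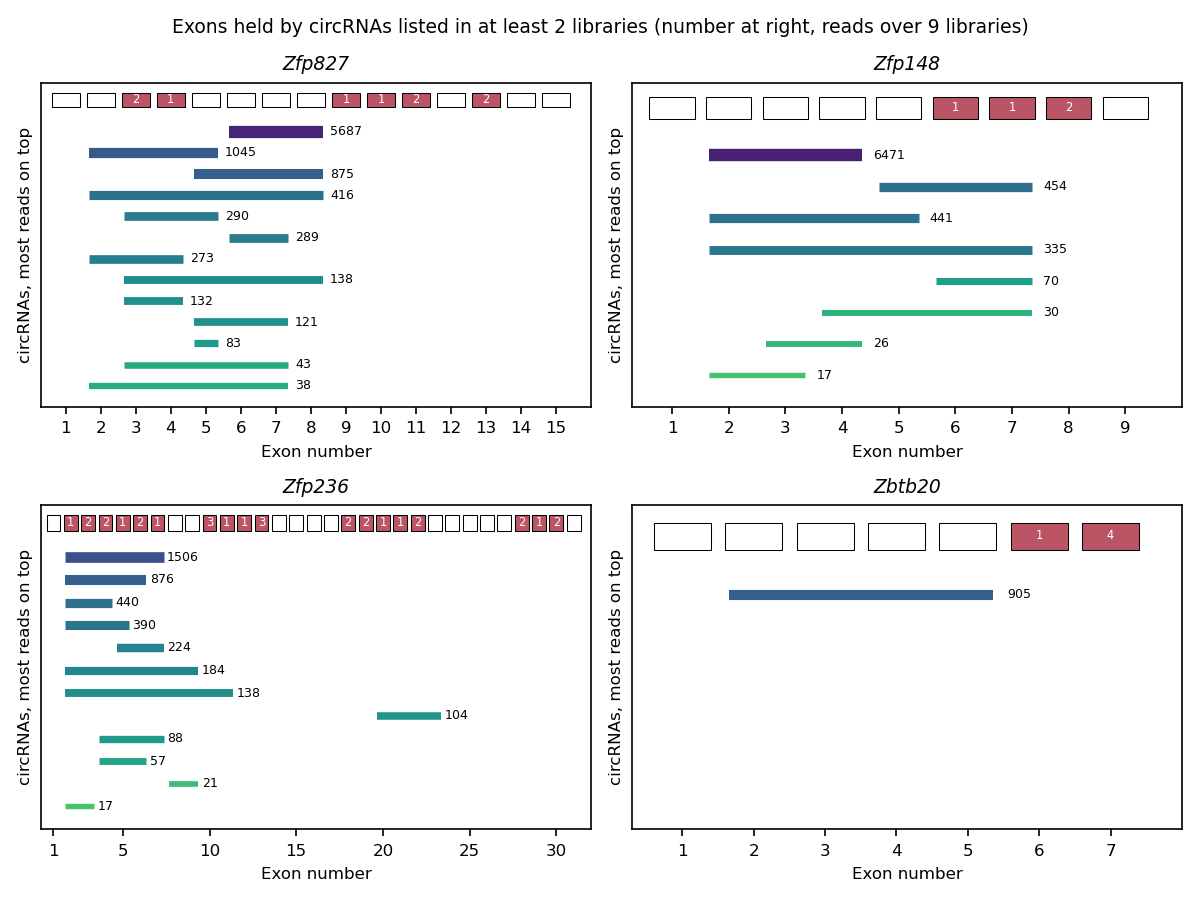
Exons held by the circRNAs of Zfp827, Zfp148, Zfp236 and Zbtb20 that were listed in at least 2 libraries and placed on the drawn transcript, against exon number. Boxes at the top are exons (red with the number of finger motifs that begin there). Bars are circRNAs, thicker and darker with more reads, and the number beside each bar is its reads over 9 libraries. In Zfp148 and Zbtb20 the bar with the most reads lies before the exons with fingers, with 6471 and 905 reads, and in Zfp236 most bars start at exon 2.

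The finger-coding exons were located by searching each host's longest coding sequence for the classical motif, a pair of cysteines 2 to 4 residues apart, 12 residues, and a pair of histidines 3 to 5 residues apart. It was found in 102 of 104 hosts with a coding transcript, with a median of 8 copies and up to 36. Of the 305 exonic circRNAs, 246 had both ends at exon edges of 1 host transcript, and these held 96.1% of exonic reads. Of the 237 placed on a transcript with motifs, 120 held no complete motif, with 60.5% of the reads of those 237, and 18 held every motif of their protein. None reached into the last exon, which was largely fixed in advance because that exon has no donor at its end. Exonic circRNAs that were not placed were not examined for this.

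The hosts differed in where their fingers lie. In 40 hosts no motif was in the last exon, and these held 82.5% of the reads, with a median of 93.5 reads, 3 circRNAs and 10.5 exons per host. In 38 hosts all motifs were in the last exon, and these held 6.51%, with medians of 17 reads, 1 circRNA and 5 exons. The 24 hosts with some motifs there held 10.9%, with a median of 47 reads. Without Zfp827, Zfp148 and Zfp236, all of the first kind, the shares were 53.3%, 17.3% and 28.9%. This is a description with no test, and the number of exons moves with the position of the fingers.

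**Figure D2:**
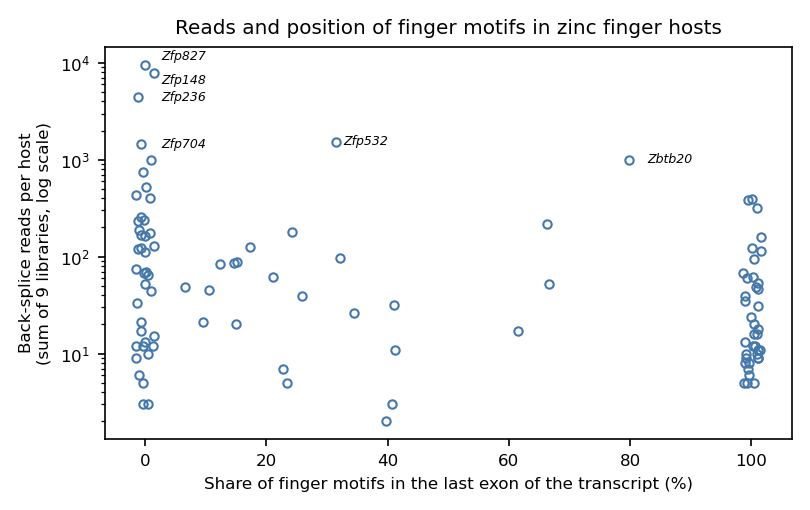
Back-splice reads per host summed over 9 libraries (log scale) against the share of the host's finger motifs that lie in the last exon, 1 circle per host with a motif (102 hosts, jittered sideways). Hosts with no motif in the last exon reach the highest counts, and those with all motifs there have a median of 17 reads.

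Compared with the other 28885 placed exonic circRNAs of the table, those of zinc finger hosts had the same median of 4 exons and similar spliced lengths, with medians of 592 and 585 bases. Their first exon was earlier in the transcript, with medians of exon 3 and exon 5, and 26.9% against 11.4% held the annotated start codon. Loops of a single exon made up 5.28% and 1.50%. Flanking introns had medians of 5652.5 bases upstream and 3887.5 bases downstream, against 4945 and 3490 bases for the others. No test was made, because circRNAs of a gene share exons and introns.

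Zfp827, the human counterpart of which recruits the NuRD complex to telomeres, had 22 circRNAs, of which 15 were in at least 2 libraries. Of these 22, 6 closed at the donor of exon 8, and they carried 74.8% of its reads. The most abundant, exons 6 to 8, is 402 bases long and wholly coding, and holds none of the 9 motifs of the protein. The junctions of exons 2 to 8, 5 to 8 and 6 to 8 printed above share their 15 donor bases and differ on the acceptor side.

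Zfp148, a factor that binds GC-rich promoters and is also known as ZBP-89, had both a shared acceptor and a shared donor. The start of exon 2 was used by 5 of its 16 circRNAs, with 92.0% of the reads. The donor of exon 4 was also used by 5, with 82.3% of the reads. The circRNA of exons 2 to 4 alone held 81.5%. It is 567 bases long, 58.7% of it coding, and holds the start codon but none of the 4 motifs.

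Zfp236 had the most circRNAs, 36, and the most even division. The start of its exon 2 was used by 11 of them, with 81.6% of the reads, while the most abundant circRNA, exons 2 to 7, held 34.2%. Its 929 bases encode 9 of the 30 motifs found in the protein. In Zfp704 the circRNA of exons 3 to 4 held 92.4% of the reads, and it lacks the protein's only motif.

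Levels of the leading hosts varied little with time. Each circRNA is read at 1 junction, so its reads are not expected to grow with its length. Host CPM sums over differing numbers of circRNAs, and how readily each junction is detected was not tested. Levels are therefore only roughly comparable between hosts. Zfp827 had 3568, 2535 and 3950 CPM at day 0, 4270, 3792 and 3536 at day 3 and 3033, 3326 and 3736 at day 6. Zfp148 had 2868, 2539 and 3634 CPM at day 0, 3734, 3017 and 3363 at day 3 and 2499, 2682 and 2395 at day 6. Zfp236 had 1548, 1570 and 1877 CPM at day 0, 1738, 1832 and 1495 at day 3 and 1408, 1828 and 1578 at day 6. The time points of Zfp827 and of Zfp236 overlapped one another, and those of Zfp148 overlapped except that all day 6 libraries were below all day 3 libraries.

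The log2 fold changes of these hosts were small, with intervals that bound them. For day 6 against day 0, Zfp827 gave 0.01 ± 0.18 (SE, 95% interval -0.35 to 0.36), Zfp148 -0.26 ± 0.18 (-0.62 to 0.11) and Zfp236 -0.05 ± 0.20 (-0.47 to 0.36). For day 3 against day 0 the values were 0.21, 0.16 and 0.02. None passed the adjusted p of 0.05 by edgeR's quasi-likelihood test with Benjamini-Hochberg adjustment over all 4115 hosts tested, the threshold used throughout. For Zfp148, day 6 against day 3 gave -0.42 ± 0.18, with an unadjusted p of 0.0246 and an adjusted p of 0.737.

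**Figure D3:**
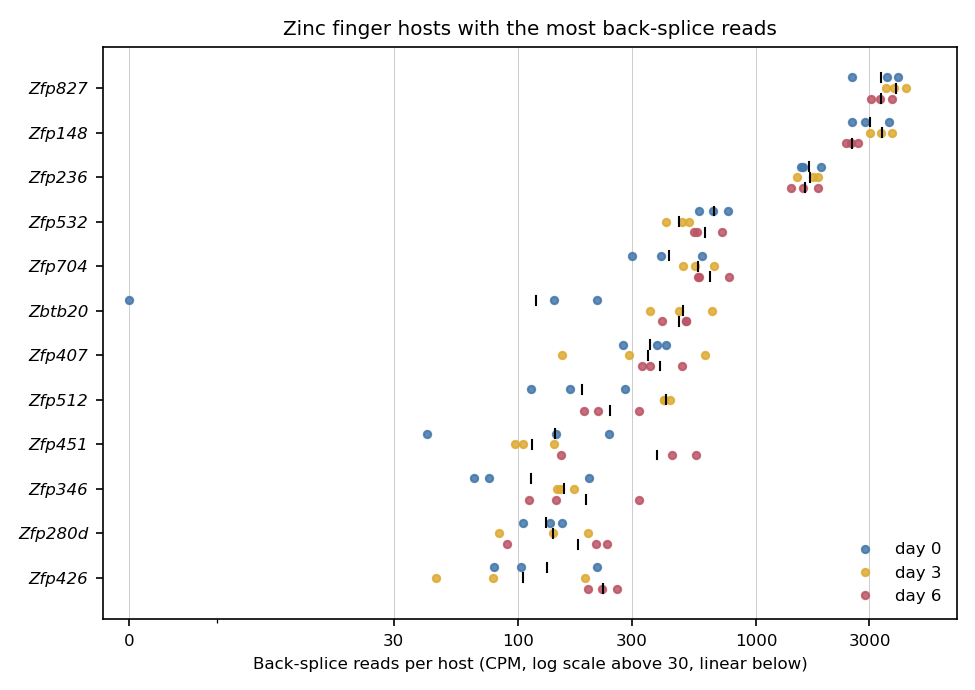
Back-splice reads per host (CPM, log scale above 30 and linear below) for the 12 zinc finger hosts with the most reads. Each point is a library (blue day 0, yellow day 3, red day 6; n = 3 each) and each tick is the mean of a time point. Zbtb20 is the host whose day 0 points, 0 to 214 CPM, lie below all points of days 3 and 6, and the points of Zfp827 and Zfp236 overlap.

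Zfp532, which in human cells is found with the chromatin reader ZMYND8, had 576, 660 and 760 CPM at day 0, 490, 417 and 523 at day 3 and 567, 717 and 548 at day 6. The day 3 libraries were below all others, and the log2 fold change of day 3 against day 0 was -0.48 ± 0.30 (adjusted p = 0.514, edgeR). Zfp704 had 301, 594 and 399 CPM at day 0, 493, 667 and 552 at day 3 and 577, 769 and 571 at day 6. Its day 6 against day 0 value was 0.57 ± 0.33 (adjusted p = 0.358, edgeR), and the ranges overlapped. Zfp407, linked to glucose uptake in mouse adipocytes, had 277 to 419, 153 to 610 and 332 to 490 CPM at days 0, 3 and 6.

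Of the 105 hosts 53 passed the filter on low counts and were tested, and 1 of them, Zbtb20, rose at day 6 and at day 3 relative to day 0; none fell. The filter passes a host with reads in only 1 time point, so the 53 are not a fair sample of the 105. Over all hosts tested, 5.66% were called for day 6 against day 0 (3.86% higher and 1.8% lower) and 3.96% for day 3 against day 0 (3.04% and 0.923%). Against that background 1 of 53 is no excess. No zinc finger host was called for day 6 against day 3, where 0.0729% of all hosts were. There 5 had an unadjusted p under 0.05 (5.98% of all hosts), and DESeq2 called 0 (0.437%). In the comparisons with day 0, 7 hosts had an unadjusted p under 0.05 at day 6 and 5 at day 3, where 17.6% and 13.5% of all hosts did. DESeq2 called 2 and 0 of them, where it called 10.4% and 6.56% of all hosts.

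At the level of single circRNAs 90 of 352 were tested, and 1, from Zbtb20, rose at day 6 and at day 3 relative to day 0. The background was 1.99% at day 6 (1.47% higher and 0.515% lower) and 1.58% at day 3 (1.31% and 0.27%) of the 8153 circRNAs tested. Unadjusted p-values under 0.05 numbered 6 and 3, against 11.6% and 9.51% of all, and DESeq2 called 0 and 1, against 4.11% and 2.45%. None was called for day 6 against day 3 (background 0.0613%), where 2 had an unadjusted p under 0.05 (4.34% of all) and DESeq2 called 0 (0.123%). With hosts at 0 in a group set at their bound, the median log2 fold change of the 53 hosts was -0.12 for day 6 against day 0, 0.02 for day 3 against day 0 and 0.08 for day 6 against day 3. Over all hosts tested the medians were -0.12, -0.02 and -0.04. In a bulk sample, fewer cells that make a circRNA and less of it per cell cannot be told apart.

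**Figure D4:**
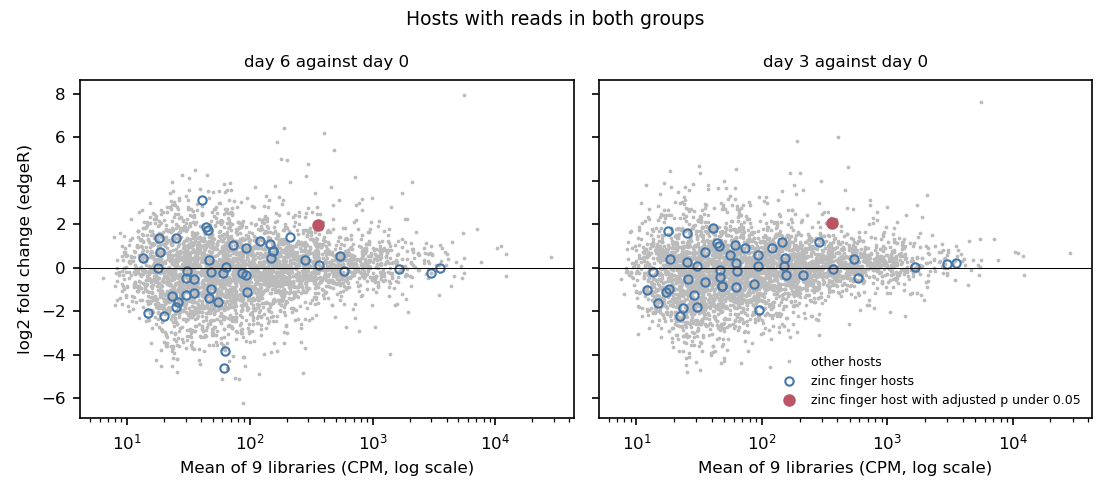
Log2 fold change by edgeR against the mean of 9 libraries (CPM, log scale), for day 6 against day 0 and day 3 against day 0. Grey points are other hosts, blue circles zinc finger hosts, and the filled red point is Zbtb20, at 1.99 and 2.05; hosts with no read in 1 of the groups are not drawn. The zinc finger hosts lie within the cloud of the others, closer to 0 at high levels.

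Zbtb20 (chr16:42875881-43642602, + strand) encodes a BTB zinc finger repressor known for silencing alpha-fetoprotein in liver. Summed over its 8 circRNAs it had 142, 0 and 214 CPM at day 0, 474, 358 and 654 at day 3 and 404, 508 and 508 at day 6. All libraries of days 3 and 6 lay above all of day 0, and days 3 and 6 overlapped. The log2 fold change was 1.99 ± 0.60 for day 6 against day 0 (95% interval 0.77 to 3.21, adjusted p = 0.0415, edgeR) and 2.05 ± 0.60 for day 3 against day 0 (0.83 to 3.27, adjusted p = 0.0441, edgeR).

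One circRNA accounted for most of it. The loop of exons 2 to 5, printed above, held 90.6% of Zbtb20 reads, with 34, 0 and 40 reads at day 0, 134, 91 and 204 at day 3 and 84, 101 and 217 at day 6. In CPM the means were 88.5 ± 81.1, 449 ± 140 and 434 ± 71.3 at days 0, 3 and 6 (SD, n = 3 each), and the day 0 range, 0 to 159 CPM, lay below the others. The log2 fold change was 2.29 ± 0.62 for day 6 against day 0 (adjusted p = 0.0319, edgeR) and 2.34 ± 0.63 for day 3 against day 0 (adjusted p = 0.0307, edgeR). Day 6 against day 3 gave -0.05 ± 0.59, with an interval of -1.22 to 1.12.

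The loop is 511 bases long and lies between introns of 59327 and 31578 bases. It holds the start codon, 38.9% of it is coding, and all 5 finger motifs of the protein lie downstream of it. Of the 8 circRNAs of Zbtb20, 5 closed at this donor, with 98.6% of the reads. A second one, listed as intronic at chr16:43561713-43577748, had 14, 0 and 17 reads at day 0, 8, 0 and 13 at day 3 and none at day 6. These counts are low and reach 0 within both earlier time points. A course different from the main loop was not tested.

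The Zbtb20 call depends on single libraries. Day 0 replicate 2 listed no Zbtb20 read. It also listed none for Zfp141, Zfp106, Zfpm1, Zfp143, Zfp652, Zfp821, Zfp568, Zfp362, Zfp777, Zfp335, Zfp341 and Zfp12. All of these had reads in both other day 0 libraries. Within day 0, replicate 1 alone was at 0 for Zbtb11, Zfp217, Zfp384 and Zfp948, and replicate 3 alone for Zfp638, Zfp507, Zfp62 and Zfp82. Without day 0 replicate 2 the host gave 1.40 for day 6 against day 0 (adjusted p = 0.0577, edgeR) and 1.46 for day 3 against day 0 (adjusted p = 0.0540, edgeR), as log2 fold changes. Leaving out the same library gave 1.71 (adjusted p = 0.124, edgeR) and 1.76 (adjusted p = 0.120, edgeR) for the circRNA. Without day 3 replicate 3, the highest, day 3 against day 0 gave 1.80 (adjusted p = 0.125) for the host and 2.08 (adjusted p = 0.112) for the circRNA. DESeq2 did not call the host, with 1.96 for day 6 against day 0 (adjusted p = 0.301) and 1.99 for day 3 against day 0 (adjusted p = 0.365).

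**Figure D5:**
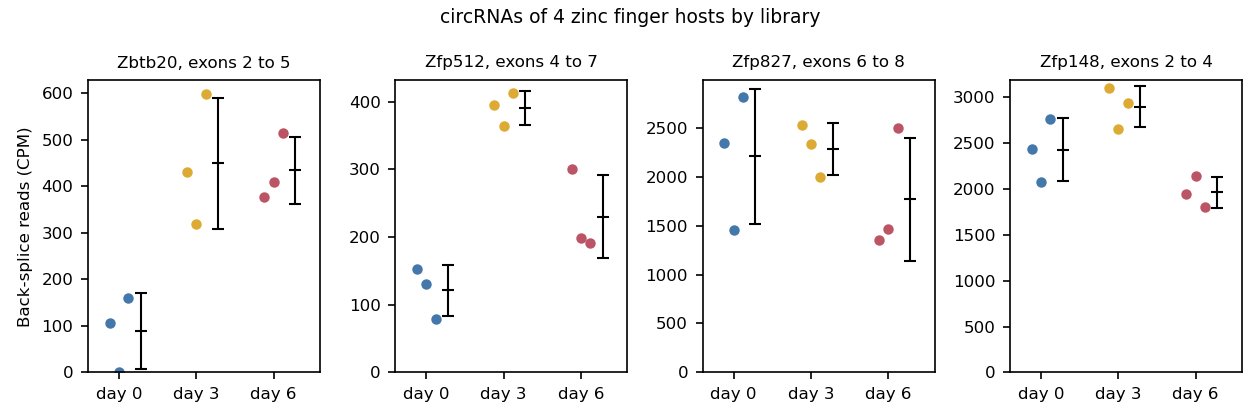
Back-splice reads (CPM, linear axes from 0) of the circRNAs of Zbtb20 exons 2 to 5, Zfp512 exons 4 to 7, Zfp827 exons 6 to 8 and Zfp148 exons 2 to 4. Points are libraries (3 per time point), the long tick is the mean and the bars are the SD. Zbtb20 is lowest at day 0, Zfp512 is highest at day 3 with 365 to 413 CPM, and Zfp148 is lowest at day 6 with 1809 to 2142 CPM.

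Zfp512 was highest at day 3. Summed over its 5 circRNAs it had 165, 281 and 113 CPM at day 0, 435, 410 and 412 at day 3 and 322, 218 and 190 at day 6. Days 0 and 6 of the host overlapped. For day 3 against day 0 the host gave 1.17 ± 0.49 (adjusted p = 0.255, edgeR) and 1.04 by DESeq2 (adjusted p = 0.139), so neither called it. Its loop of exons 4 to 7, 401 bases long and with 1 of 3 motifs, had 153, 131 and 79.6 CPM at day 0, 395, 365 and 413 at day 3 and 301, 199 and 192 at day 6. The 3 time points of this loop did not overlap one another. For day 3 against day 0 the log2 fold change was 1.68 ± 0.57, with an adjusted p of 0.188 by edgeR, and DESeq2 gave 1.52 with an adjusted p of 0.0234. Its flanking introns, 598 and 2117 bases, are shorter than those of each other circRNA among the 10 with the most reads.

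The circRNA of Zfp148 exons 2 to 4 had 2442, 2082 and 2770 CPM at day 0, 3104, 2661 and 2937 at day 3 and 1945, 2142 and 1809 at day 6. All day 6 libraries were below all day 3 libraries, with a log2 fold change of -0.56 ± 0.18 (unadjusted p = 0.00297, adjusted p = 0.664, edgeR). The loop of Zfp827 exons 6 to 8 had 2349, 1454 and 2818 CPM at day 0, 2523, 2338 and 1999 at day 3 and 1357, 1460.5 and 2493 at day 6. The time points overlapped.

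Other loops of Zfp827 differed in the order of the time points. The one of exons 2 to 5 had 316 to 402, 270 to 607 and 206 to 629 CPM at days 0, 3 and 6, which overlapped. The one of exons 2 to 8, with 3 of 9 motifs, had 93.7, 50.1 and 55.7 CPM at day 0, 298, 102 and 147 at day 3 and 198, 195 and 225 at day 6. No day 0 library reached the later ones, and day 6 against day 0 gave 1.62 ± 0.79 (adjusted p = 0.354, edgeR). The loop of exons 5 to 8 had 155 to 285 CPM at day 0, 260 to 389 at day 3 and 377 to 454 at day 6, with 0.75 ± 0.48 for day 6 against day 0 (adjusted p = 0.439, edgeR). The loop of exons 2 to 4 ran the other way, with 172, 174 and 151 CPM at day 0, 48.2, 123 and 87.9 at day 3 and 58.4, 20.3 and 87.6 at day 6. All its day 0 libraries were above all later ones, and day 6 against day 0 gave -1.56 ± 1.06 (adjusted p = 0.489, edgeR).

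Zfp451, whose human counterpart is a SUMO ligase, had 242, 145 and 41.4 CPM at day 0, 142, 97.3 and 105 at day 3 and 442, 559 and 152 at day 6. Day 6 was above day 3 in every library and overlapped day 0. The log2 fold changes were 1.42 ± 0.64 for day 6 against day 0 (adjusted p = 0.243) and 1.74 ± 0.64 for day 6 against day 3 (adjusted p = 0.737), both by edgeR.

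Zfp410, a regulator of the chromatin remodeller gene Chd4, was low at day 6. It had 133, 89.8 and 132 CPM at day 0, 80.6, 55.6 and 55.5 at day 3 and 0, 0 and 11.7 at day 6, and the 3 time points did not overlap. For day 6 against day 0, edgeR gave -4.60 ± 1.75 (adjusted p = 0.142) and DESeq2 -4.72 (adjusted p = 0.00425). Its 168 reads were divided over 9 circRNAs, none of them in more than 4 libraries.

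Zfp280c had 103, 117 and 30.1 CPM at day 0, 96.7, 20.9 and 178 at day 3 and 0, 17.1 and 0 at day 6. Both earlier time points lay above day 6. The log2 fold change of day 6 against day 0 was -3.84 ± 1.77 by edgeR (adjusted p = 0.258) and -4.05 by DESeq2 (adjusted p = 0.0445). These 2 hosts were the only zinc finger hosts that DESeq2 called, where it called 10.4% of all hosts, and they are named after their values were seen.

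Among members with roles other than binding DNA, Zfp346, which binds double-stranded RNA, had 65.0, 199 and 75.2 CPM at day 0, 145, 149 and 172 at day 3 and 144, 111 and 323 at day 6. Zfp207, which binds Bub3 at the spindle, had 39.1 to 79.8 CPM at day 0, 83.8 to 111 at day 3 and 91.3 to 137 at day 6 over 13 circRNAs. All later libraries of Zfp207 were above its day 0 range, but the log2 fold change of day 6 against day 0, 0.93 ± 1.05, was smaller than its error. Zfp106, an RNA-binding protein needed for neuromuscular function in mice, had 0 to 79.8, 54.8 to 128 and 25.7 to 163 CPM at days 0, 3 and 6.

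Zfp280d had 105 to 152, 83.4 to 197 and 89.7 to 236 CPM at days 0, 3 and 6. Zfp426, with all 11 of its motifs in the last exon, had 79.0 to 215, 45.1 to 191 and 197 to 260 CPM. The time points of Zfp280d overlapped. In Zfp426 all day 6 libraries were above all day 3 libraries, with a log2 fold change of 1.11 ± 0.75 (adjusted p = 0.845, edgeR), and day 0 overlapped both. No comparison of either host passed.

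Some hosts with few reads were listed in no library of a time point. Zfp131 had 109, 43.0 and 52.7 CPM at day 0 and no read in any library of days 3 and 6. With a floor of 3 reads per library it was at least 5.98-fold lower at day 6 than at day 0 and at least 7.10-fold lower at day 3 than at day 0, and neither comparison passed (adjusted p = 0.229 and 0.281, edgeR). Zfp143, an activator at promoters, had 73.8, 0 and 71.5 CPM at day 0, none at day 3 and 76.9, 42.7 and 11.7 at day 6.

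The other hosts of this kind had under 170 CPM in every library. Zfp507, Zfp266, Zfp777 and Zfp335, which acts with histone methyltransferase complexes, had reads at days 0 and 3 and none at day 6. By the mean of day 0 over the floor, they were at least 5.29, 4.82, 3.07 and 2.14-fold lower at day 6. Of these, only Zfp266 had reads in every day 0 library. At day 0 Zfp507 had 165, 15.6 and 0 CPM, Zfp777 82.7, 0 and 22.6, and Zfp335 20.7, 0 and 52.7. For those hosts the day 0 range therefore reached the 0 of day 6. Zfp217, whose human counterpart is amplified in tumours, had none at day 3. Its mean was at least 5.25-fold lower there than at day 0, where it had 0, 129 and 22.6 CPM. Zfpm2, the GATA cofactor FOG2, had none at day 0 and 86.6 CPM in 1 library of day 6, and Zfp839 likewise had none at day 0. None of these comparisons passed.

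Among tested hosts with reads in both groups, Zfp608 had the highest fitted change for day 6 against day 0 and Zfp341 for day 6 against day 3. Zfp608 had 26.6, 0 and 0 CPM at day 0, 0, 101 and 0 at day 3 and 135, 0 and 108 at day 6, with 3.10 ± 2.35 for day 6 against day 0 (adjusted p = 0.574, edgeR). Zfp341, whose human counterpart activates STAT3, had 20.7, 0 and 18.8 CPM at day 0, 19.4, 0 and 0 at day 3 and 81.7, 0 and 23.4 at day 6, with 2.36 for day 6 against day 3 (95% interval -3.32 to 8.05, adjusted p = 1, edgeR). In both the time points overlapped.

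The remaining abundant circRNAs had overlapping time points or did not pass. The loop of Zfp704 exons 3 to 4 had 319 to 494, 462 to 634 and 521 to 694 CPM at days 0, 3 and 6, and all its day 6 libraries were above all of day 0 (0.57 ± 0.38, adjusted p = 0.468, edgeR). Zfp236 exons 2 to 7 had 505 to 606, 560 to 680 and 479 to 540 CPM, and exons 2 to 6 had 279 to 412, 196 to 347 and 323 to 410 CPM. Zfp532 exons 4 to 7 had 351 to 503, 273 to 282 and 292 to 458 CPM, lowest at day 3 (-0.64 ± 0.45 against day 0, adjusted p = 0.612, edgeR).

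The circRNAs at the ends of the ranking by fold change had 24 to 104 reads in 3 or 4 libraries, and none passed. Bounds set the mean of the time point with reads over the same floor of 3 reads per library. A single library of that time point can itself be at 0. With no read at day 6, Zfp236 exons 19 to 22 was at least 7.28-fold lower than at day 0, Zfp131 exons 2 to 4 at least 5.80-fold, Zfp280c exons 7 to 9 at least 4.28-fold and Zfp462 exons 8 to 9 at least 2.28-fold. Also with no read at day 6, a loop of Zfp827 that was not placed on exons was at least 2.51-fold lower than at day 3. With no read at day 3, Zfp217 exons 2 to 4, Zfp280d exons 4 to 9 and Zfp568 exons 2 to 5 were at least 4.69, 2.31 and 1.93-fold lower than at day 0.

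Others had no read at day 0 and also did not pass. With no read at day 0, Zfp426 exons 3 to 7 was at least 4.57-fold higher at day 6, Zfp207 exons 3 to 9 at least 3.56-fold and Zfp106 exons 6 to 13 at least 2.18-fold. Also without a read at day 0, Zfp236 exons 4 to 6 and a loop of Zfp236 not placed on exons were at least 3.32 and 2.17-fold higher at day 3.

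The tested Zbtb hosts beside Zbtb20 were Zbtb25, Zbtb11, Zbtb40, Zbtb7a, Zbtb49 and Zbtb17. Their libraries ranged over 0 to 136 CPM, every one of them was at 0 in at least 1 library, and none passed in any comparison. Log2 fold changes of day 6 against day 0 ran from -1.37 ± 1.93 for Zbtb40 to 1.88 ± 1.99 for Zbtb11, so the error was as large as the value. The other 8 Zbtb hosts, and 44 Zfp hosts, did not pass the filter, which asks for reads in enough libraries as well as enough reads: Zbtb48 had 65 reads in 2 libraries and was not tested, and Zfp839 had 31 in 3 and was.

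Partners of these proteins were counted as hosts too. Of 24 symbols listed for the KRAB co-repressor pathway, with Tasor and Fam208a both standing for 1 gene, 18 were hosts and 15 were tested. For day 6 against day 0, 1 of them rose and 2 fell, where 3.86% of all hosts were called higher and 1.8% lower, and for day 3 against day 0, 1 fell, where 0.923% were called lower. Morc3, a silencing ATPase, rose at day 6 against day 0 (1.33 ± 0.33, adjusted p = 0.00834, edgeR), with 846 to 1021 CPM at day 6 and 216 to 504 CPM at day 0. Pphln1, of the HUSH silencing complex, fell at day 6 against day 0 (-0.86 ± 0.26, adjusted p = 0.0410, edgeR) and at day 3 against day 0 (-0.89 ± 0.26, adjusted p = 0.0422, edgeR), with 1492 to 1663, 660 to 1081 and 581 to 1110 CPM at days 0, 3 and 6. Uhrf1, which maintains DNA methylation, had no read at day 6 and 26.6 to 331 CPM at day 0, at least 12.5-fold lower (adjusted p = 0.0424, edgeR). The list's median log2 fold change for day 6 against day 0 was -0.79, against -0.12 for all hosts. When each library was left out in turn, Morc3 passed in 8 of 9 fits and needed day 0 replicate 1. Pphln1 passed in 6 fits for day 6, where it needed day 0 replicates 1 and 3 and day 6 replicate 3, and in 5 fits for day 3, where it needed the same pair at day 0 and day 3 replicates 1 and 3. Uhrf1 passed in 5 fits and needed day 0 replicate 3 and every day 6 library. Of 9 other settings Morc3 passed in all. Pphln1 passed in 7 in each comparison, and its call was lost with upper-quartile factors in both, with only the 2 groups in the fit at day 6 and with circRNAs in at least 2 libraries at day 3. Uhrf1 passed in 5, and its call was lost with minimum count 10, with the replicate block, with only the 2 groups and with circRNAs in at least 2 libraries.

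Of 20 co-repressor and ligase genes that BTB proteins bind, 18 were hosts and 14 were tested. Mta1, of the NuRD complex, fell at day 6 against day 0 (-1.70 ± 0.36, adjusted p = 0.00169, edgeR), with 175 to 269 CPM at day 6 and 647 to 949 CPM at day 0. It was the only one of the 14 called, where 5.66% of all hosts were, and it passed in all 9 fits that leave out a library. The list's median for that comparison was -0.21, against -0.12 for all hosts, and no gene of the list was called in the other comparisons.

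Of 98 symbols listed as zinc finger genes under other names, 47 were hosts and 26 were tested. The list was not cleared of noncoding genes or second symbols, such as Zeb2os and Znf512b. Zeb1, a repressor known from epithelial-mesenchymal transition, rose at day 6 against day 0 (0.996 ± 0.233, adjusted p = 0.00491, edgeR) and at day 3 against day 0 (1.01 ± 0.23, adjusted p = 0.00506, edgeR). It was the only one of the 26 called in either comparison, where 5.66% and 3.96% of all hosts were. It had 633 to 928, 1393 to 2003 and 1320 to 1943 CPM at days 0, 3 and 6, and its day 3 call was lost without day 3 replicate 3 (adjusted p = 0.0704, edgeR). The list's medians were -0.55 for day 6 against day 0 and -0.43 for day 3 against day 0, against -0.12 and -0.02 for all hosts and opposite in sign to Zeb1.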

How the data were processed

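Back-splice reads were deposited by the authors as 1 table of raw counts, with a row per circRNA and a column per library. BWA and the mouse build GRCm38.p4 (mm10) are named per the submitters' processing notes. The circRNA caller, its filters and any removal of duplicates were not given in the sources used here. As the smallest count above 0 is 2, a 0 means none listed. Counts were used as deposited, per circRNA and summed per host gene; library totals include circRNAs with no host. PCR reads carry no molecular identifiers, so floors cover counting error only.

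Groups were compared by the quasi-likelihood F-test of edgeR 4.0.16 in R 4.3.3, with TMM factors, filterByExpr (minimum count 5, minimum total 15), group means, all 9 libraries in 1 fit (6 residual degrees of freedom) and Benjamini-Hochberg adjustment over all features. As edgeR gives no standard error (SE), it was taken as the absolute log2 fold change over the root of F, and intervals are built from it. Replicates differed by more than sampling noise (chi-square per degree of freedom 11.7 to 14.6). Alternatives were other scalings, DESeq2 1.42.0, other filters, a block, fits of 2 groups and left-out libraries. Scripts were tested on simulated data.

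Genes and exons come from GENCODE M21 (GRCm38), and flanks were compared with all its transcripts. Named hosts were the 12 with the most reads, the 5 with the most circRNAs, those called, and the 3 highest and 3 lowest log2 fold changes per comparison; circRNAs likewise, with the 10 most abundant. Hosts and circRNAs outside that rule (loops of Zfp827, Zfp410, Zfp280c, the other Zbtb hosts, examples by role) were named after their values were seen. The members, lists and tests were chosen with earlier results of these data known.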

Additional observations from a re-analysis of the deposited data

How the results depend on the processing

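With a call counted at an adjusted p of 0.05, the zinc finger host called for day 6 against day 0 (1) became 0 with library size alone, with minimum count 10, with only the 2 groups in the fit and with circRNAs listed in at least 2 libraries, and 2 (other hosts) with DESeq2. For day 3 against day 0 it (1) became 0 under each of those 5. Leaving out single libraries gave 0 to 1 host in both comparisons. The circRNA called (1 in each comparison with day 0) became 0 with minimum count 10 and with only the 2 groups, and 0 with DESeq2 for day 6; DESeq2 called 1 for day 3, of Zfp512. Left-out libraries gave 0 to 1 circRNA. The causes were not tested. Day 6 against day 3 stayed at 0 in all fits. Upper-quartile factors, no filter and, added after seeing the data, totals of reads with a host changed none of these counts. The mean share of reads at day 6 was 1.29% over circRNAs in at least 2 libraries, against 1.25%. No direction of a called value reversed. The log2 fold change of Zbtb20 ran from 1.40 to 2.70 for day 6 against day 0 and from 1.46 to 2.76 for day 3 against day 0 over left-out libraries.

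Deviations of same-numbered libraries correlated at -0.0319 to -0.0011 over hosts and -0.0316 to 0.0096 over circRNAs. Many features have few reads, and pairing of the libraries by number was not tested beyond these values. With a replicate block the counts stayed at 1, 1 and 0, and Zbtb20 gave 2.38 for day 6 against day 0 (adjusted p = 7.6e-05) and 2.31 for day 3 against day 0 (adjusted p = 9.7e-05), by edgeR. Depth limits many hosts: 52 of 105 had reads too few, or in too few libraries, to be tested.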
